A study of Mus musculus with 18 samples.

Results

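The 39 genes described here are interferon-stimulated genes, guanylate-binding proteins (GBPs) and interferon regulatory factors (IRFs) of mouse liver, measured 4 h after an injection of interleukin-1β (IL-1β). They were taken by gene symbol, and each of the 39 had a row in each of the 3 gene count tables, which together list 21018 genes. By what the genes are best known for, 21 were placed among the effectors of type I interferon, 10 among the effectors of interferon gamma, called gamma-type here, and 8 among the transcription factors, which are Stat2 and 7 IRFs. Many of these genes respond to both kinds of interferon, so the classes are a convention.

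The study compared 3 RNA-Seq library kits on the same liver RNA. Male C57/B6J mice of 12 weeks received 20 µg/kg of IL-1β (mice I9579, I9582 and I9583) or saline (mice U9574, U9575 and U9576) into the peritoneum, no interferon was given to either group, and whole livers were taken. RNA of each of the 6 mice entered Pico (stranded total RNA, 1.7 to 2.6 ng of input), V4 (unstranded poly(A) RNA, 0.8 to 1.3 ng) and TruSeq (stranded poly(A) RNA, 200 ng), with 1 library per mouse and kit and 18 libraries in all. The kits also differ in read length (150, 150 and 125 bp) and sequencer, and they share the mice, so a gene that moved in more than 1 kit was measured again in the same livers and not in new animals.

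Type I interferons (alpha and beta) bind Ifnar1 and Ifnar2, and the kinases Jak1 and Tyk2 then act through Stat2, which joins Irf9 in a complex on the interferon-stimulated response element (ISRE) of antiviral genes. Interferon gamma, made mainly by T and NK cells, binds Ifngr1 and Ifngr2, which signal to genes with a gamma-activated site (GAS) and switch on Irf1, the GBPs and the immunity-related GTPases (IRGs), which gather on vacuoles that hold intracellular pathogens. IL-1β has a receptor of its own that acts mainly through NF-κB and MAP kinases, and in hepatocytes it starts the acute-phase response.

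The gene counts of a library summed to between 4024632 and 4134070 in Pico, between 12013453 and 12352473 in V4, and between 12348864 and 12858237 in TruSeq. All 8 hepatocyte markers listed (Alb, Apoa1 and others) were high, with a summed level of 60120 to 112820 CPM (counts scaled to the same library total, the usual per-million unit) over the 18 libraries. In TruSeq that sum was 78102 to 85789 CPM after IL-1β and 94891 to 112820 CPM after saline, and the treatments overlapped in Pico and V4. The hepatocyte markers did not move together: Alb, Serpina1a and Cps1 fell in each kit, while Fgb rose in each kit and Hnf4a in Pico and TruSeq. Of 10 neutrophil markers, 7 to 9 had a row in a table and Mpo had none. Their summed level was 0.971 to 6.08 CPM in the saline mice and 39.5 to 89.8 CPM in the IL-1β mice, and 2 to 4 of them were at 0 in every saline library of a kit. The 9 Kupffer cell and macrophage markers summed to 147 to 295 CPM after saline and 89.0 to 165 CPM after IL-1β over the 3 kits. Within each kit the treatments did not overlap, although the marker Marco rose in TruSeq. The 11 T and NK cell markers stayed low, at 1.24 to 6.68 CPM together and at most 35 counts for a single marker. Their sum in TruSeq was 1.61 to 3.32 CPM after IL-1β and 4.12 to 4.45 CPM after saline, and the treatments overlapped in Pico and V4. Of these markers, 2 of 10 rose in Pico (Prf1 and Ncr1, with 1 to 5 counts after IL-1β) and 1 of 11 fell in TruSeq. Endothelial (6), stellate cell (5) and B cell (4) markers had lower summed levels after IL-1β in each kit without overlap, in TruSeq 79.9 to 101 CPM against 149 to 172, 144 to 190 against 276 to 312 and 0.403 to 0.885 against 1.94 to 4.19, although the endothelial marker Lyve1 rose in Pico and TruSeq and Cdh5 in Pico. The 5 dendritic cell markers overlapped in each kit, at 1.15 to 9.41 CPM. In whole liver, fewer cells of a type and less RNA per cell cannot be told apart, and the part of these cell types in the results below was not tested.

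IL-1β raised most of the gamma-type effectors and few of the type I effectors. Among the 10 gamma-type effectors, 8 rose in Pico, 6 in V4 and 9 in TruSeq. None of them fell. Their median log2 fold change in the kits, in that order, was 1.56, 1.92 and 1.56. Of the 21 type I effectors, 3 rose in Pico, 3 in V4 and 5 in TruSeq, while 4 fell in TruSeq. The medians of this class were 0.34, 0.01 and 0.14, against -0.12, -0.22 and -0.17 over all genes. In the same order, 6.78%, 3.60% and 12.3% of all genes rose and 10.8%, 7.41% and 21.8% fell. Among the 8 transcription factors, Irf1 fell in each kit, Stat2 rose in Pico and TruSeq, and Irf2 and Irf5 fell in TruSeq.

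These calls come from limma-voom within each kit, at a Benjamini-Hochberg adjusted p of at most 0.05 over all genes of the table. Of the 39 genes, 12 rose and 1 fell in Pico, where 6.78% of all 18108 genes rose and 10.8% fell. In V4, 9 rose and 1 fell, against 3.60% and 7.41% of 18051 genes. In TruSeq, 15 rose and 7 fell, against 12.3% and 21.8% of 19424 genes. At an adjusted p of at most 0.01, 11, 6 and 10 of the 39 genes rose (4.17%, 1.66% and 7.54% of all genes) and 1, 0 and 5 fell (6.23%, 2.57% and 13.5%) in Pico, V4 and TruSeq. At an adjusted p of at most 0.1, 13, 9 and 17 rose (8.87%, 5.20% and 14.6%) and 2, 2 and 7 fell (14.0%, 11.3% and 25.8%). Over all genes of a table the medians were -0.12, -0.22 and -0.17 in the same order, and scaling by TMM moved them up by 0.13, 0.17 and 0.16. No gamma-type effector fell at an unadjusted p under 0.05 or by edgeR or DESeq2 in any kit. Of the type I effectors, limma-voom called 0 lower in Pico and 0 in V4, with 2 and 4 at an unadjusted p under 0.05. edgeR called 1 lower in Pico and 0 in V4, and DESeq2 called 0 in both. The number of type I effectors that rose in Pico was 7 by edgeR and 5 by DESeq2. With the adjustment, the number that rose in V4 went from 3 to 0 without U9575 and to 1 without I9579, I9582 or U9574. In TruSeq it went from 5 to 3 without I9579, I9582, U9575 or U9576, and the 4 that fell became 2 without I9582, I9583 or U9574 and 2 with TMM scaling.

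**Figure D1:**
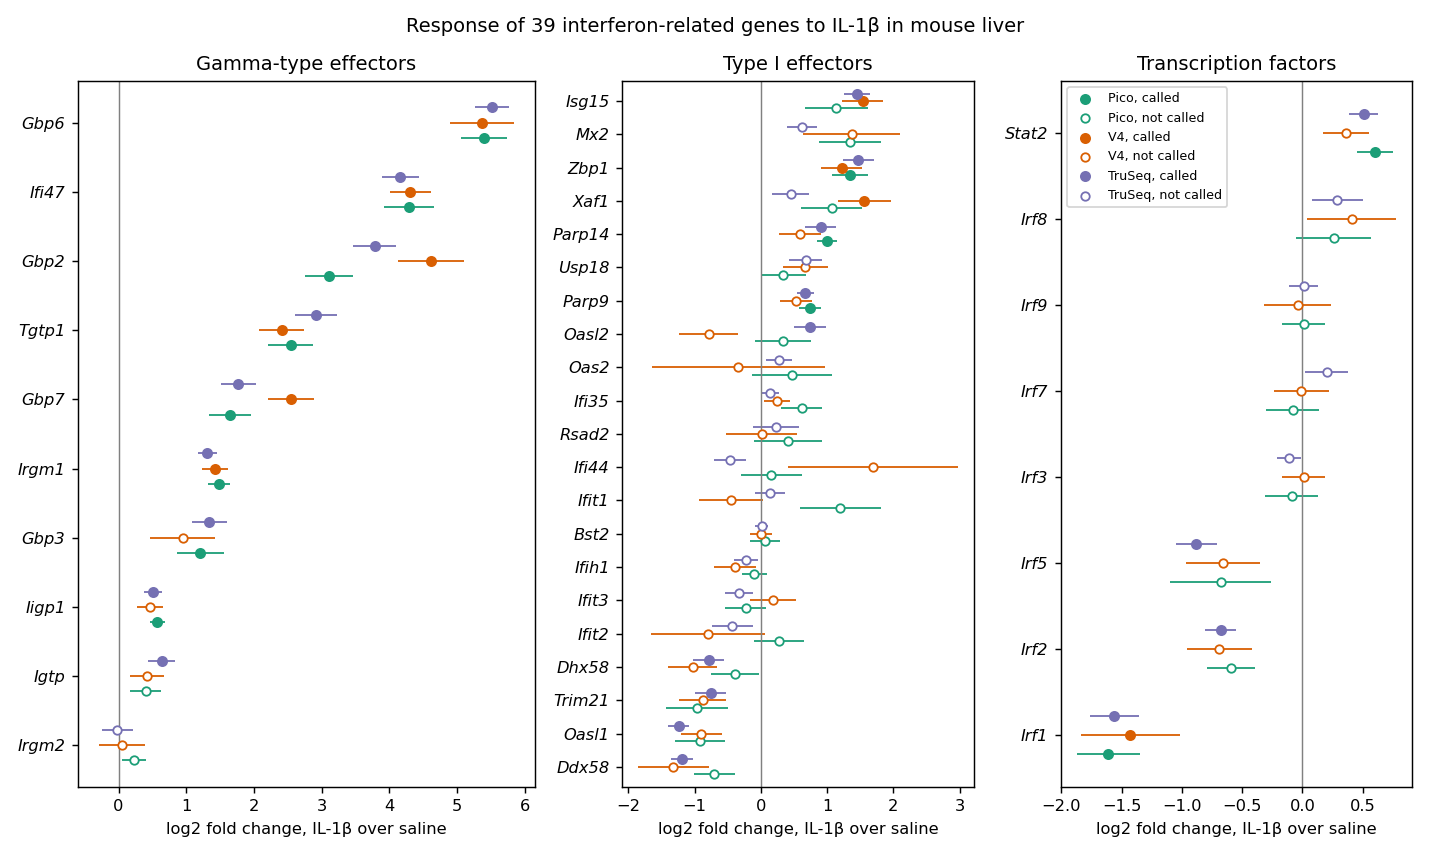
The log2 fold change of IL-1β over saline (x axis, from limma-voom, bars of 1 standard error, 3 mice per treatment) is plotted for the 39 genes in the 3 kits, ordered within each class by their median. Filled points passed an adjusted p of 0.05 and open points did not. Gbp6, Ifi47 and Gbp2 lie farthest to the right at 3.11 or more in each kit, most type I effectors lie within 1.5 of 0, and Irf1 is the lowest transcription factor.

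Gbp6, a guanylate-binding protein encoded on chromosome 5, had the highest fold change of the 39 genes in each kit. In TruSeq it had 5094, 4795 and 3478 counts in I9579, I9582 and I9583 and 144, 72 and 92 counts in U9574, U9575 and U9576. In Pico the counts were 2003, 1703 and 1376 after IL-1β and 59, 21 and 51 after saline, and in V4 they were 2136, 2532 and 1802 against 97, 74 and 19. The lowest IL-1β library thus stood far above the highest saline library in each kit, and I9583 was the lowest of the IL-1β mice. The log2 fold change was 5.40 (SE 0.34, adjusted p = 1.56e-08 from limma-voom) in Pico, 5.37 (SE 0.47, adjusted p = 7.52e-05) in V4 and 5.52 (SE 0.25, adjusted p = 1.07e-06) in TruSeq, a rise of 42.3-fold, 41.5-fold and 45.8-fold. Of the 100-base windows of its transcripts, 64.4% also occur in another gene, mostly Gbp10, so the counts of Gbp6 and Gbp10 cannot be fully told apart.

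Gbp2 lies with Gbp3 and Gbp7 on chromosome 3, between positions 142193302 and 142300972 of mm9, the build of the files. Gbp2 had 1019, 1370 and 651 counts in the IL-1β mice of TruSeq, in the order of the mouse numbers, and 63, 91 and 65 in the saline mice. In Pico it had 347, 400 and 221 against 25, 51 and 38 counts, and in V4 555, 601 and 404 against 13, 24 and 28. The treatments did not overlap in any kit, and I9582 was highest and I9583 lowest after IL-1β. Its log2 fold change was 3.11 (SE 0.35) in Pico, 4.61 (SE 0.49) in V4 and 3.78 (SE 0.32) in TruSeq, with adjusted p of 9.88e-06, 0.000259 and 3.41e-05 from limma-voom.

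Gbp7 rose less than Gbp2. Its counts in TruSeq were 839, 981 and 459 in the IL-1β mice and 229, 198 and 227 in the saline mice. In Pico they were 447, 383 and 185 against 91, 90 and 131, and in V4 505, 542 and 314 against 79, 71 and 77. I9583 was again the lowest IL-1β mouse, and in Pico it came closest to the saline mice. Gbp7 had log2 fold changes of 1.65 (SE 0.31), 2.54 (SE 0.34) and 1.77 (SE 0.26) in Pico, V4 and TruSeq, with adjusted p of 0.00119, 0.00113 and 0.000736 from limma-voom. Gbp3, the neighbour of Gbp7, rose in Pico (log2 fold change 1.21, SE 0.35) and TruSeq (1.34, SE 0.26), while its value of 0.95 (SE 0.48) in V4 did not pass (adjusted p = 0.257, limma-voom). In Pico the call of Gbp3 was lost without any single mouse other than I9583, with an adjusted p of up to 0.145.

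The IRGs are a second family of interferon-induced GTPases, and their members moved by very different amounts. Ifi47 (also known as Irg47), on chromosome 11, had the largest fold change of the 6 IRGs among the 39 genes in each kit. It had 6341, 5665 and 3386 counts in the IL-1β mice of TruSeq against 386, 214 and 280 in the saline mice. In Pico the counts were 802, 760 and 484 against 40, 22 and 45, and in V4 8762, 8962 and 5690 against 597, 236 and 413. Each IL-1β library lay above each saline library, with I9583 the lowest of the IL-1β mice in each kit and U9575 the lowest of the saline mice. The log2 fold change of Ifi47 was 4.29 (SE 0.37) in Pico, 4.31 (SE 0.30) in V4 and 4.16 (SE 0.27) in TruSeq, with adjusted p of 5.93e-07, 1.6e-05 and 7.84e-06 from limma-voom. Its exons share 4.79% of their bases with Olfr56 on the same strand.

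Tgtp1, a T cell-specific GTPase by name that many cell types make after interferon, had 565, 647 and 321 counts after IL-1β and 80, 60 and 62 after saline in TruSeq. In Pico it had 223, 244 and 142 against 33, 27 and 45 counts, and in V4 642, 714 and 392 against 95, 125 and 102. The order of the IL-1β mice was the same in the 3 kits, with I9582 highest and I9583 lowest. Its log2 fold change was 2.54 (SE 0.33), 2.41 (SE 0.33) and 2.91 (SE 0.31) in Pico, V4 and TruSeq, with adjusted p of 4.03e-05, 0.00123 and 0.000116 from limma-voom. Of its 100-base windows 77.6% also occur in another gene, mostly Tgtp2, for which the fold change was lower (0.45, 0.75 and 0.91, called in TruSeq alone), so the split of reads between this pair is uncertain.

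Irgm1, an IRG that regulates the other members of the family and autophagy, had 2441, 2422 and 1729 counts in the IL-1β mice of TruSeq and 962, 888 and 855 in the saline mice. In Pico the counts were 571, 524 and 481 against 215, 201 and 160, and in V4 1971, 2385 and 1803 against 929, 757 and 635. The treatments did not overlap. Irgm1 had log2 fold changes of 1.48 (SE 0.16), 1.42 (SE 0.19) and 1.31 (SE 0.14) in Pico, V4 and TruSeq, with adjusted p of 5.36e-06, 0.00128 and 0.000126 from limma-voom, a rise of 2.80-fold, 2.68-fold and 2.48-fold. Its paralog Irgm2 did not pass in any kit, with log2 fold changes of 0.23 (SE 0.18), 0.05 (SE 0.34) and -0.02 (SE 0.23). In TruSeq Irgm2 had 578 to 1187 counts after IL-1β and 825 to 996 after saline, so the treatments overlapped.

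Iigp1, an effector IRG that loads onto pathogen vacuoles, and Igtp (Irgm3), a regulatory IRG like Irgm1, had smaller fold changes than Irgm1 in each kit. Iigp1 had 4426 to 5780 counts after saline and 6014 to 7297 after IL-1β in TruSeq, and its log2 fold change was 0.57 (SE 0.11) in Pico, 0.46 (SE 0.19) in V4 and 0.51 (SE 0.13) in TruSeq. It passed in Pico (adjusted p = 0.00109, limma-voom) and TruSeq (adjusted p = 0.0114), where the call was lost without I9579, I9582, U9575 or U9576 (highest adjusted p 0.0645). Igtp had a log2 fold change of 0.40 (SE 0.23), 0.42 (SE 0.25) and 0.64 (SE 0.20), and it passed in TruSeq (adjusted p = 0.031, limma-voom), where U9576 with 864 counts stood above I9583 with 773. Without I9579, I9582, U9574 or U9575 that call was lost, with an adjusted p of up to 0.162. In addition, edgeR called Igtp in Pico and DESeq2 called Iigp1 in V4.

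**Figure D2:**
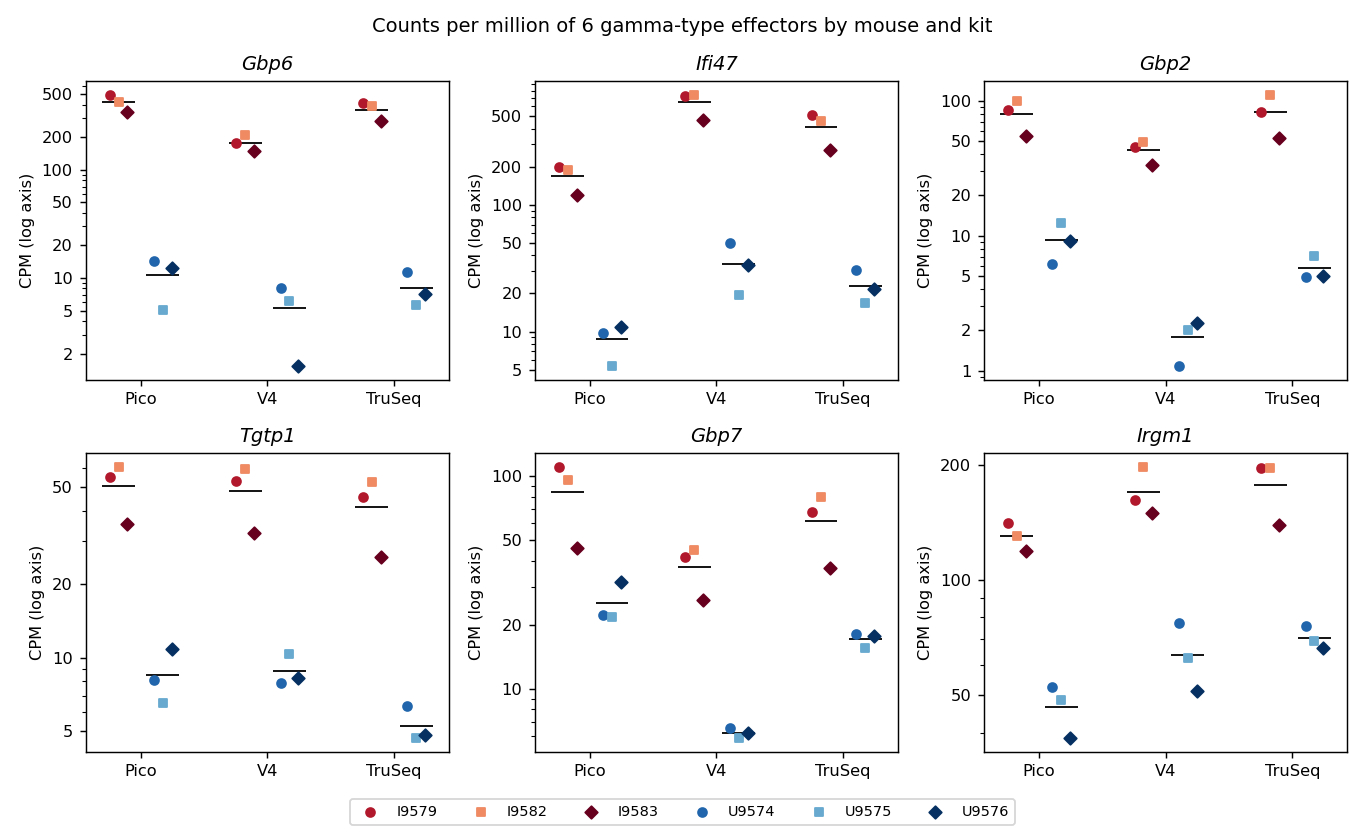
CPM (y axis, log scale) of Gbp6, Ifi47, Gbp2, Tgtp1, Gbp7 and Irgm1 are plotted by kit for each mouse, with IL-1β mice in red tones at the left of each pair, saline mice in blue tones at the right and a black line at the mean of 3 mice. Each IL-1β mouse lies above each saline mouse in each kit, and I9583 (dark red diamond) is the lowest IL-1β mouse in all 18 sets of points.

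Counted over the class, 8 of the 10 gamma-type effectors had no overlap between treatments in Pico, 6 in V4 and 8 in TruSeq, each with IL-1β higher. Over all genes, 12.6%, 9.09% and 17.1% had such a separation in that direction. Of the 21 type I effectors, 7, 4 and 4 had it in that direction in Pico, V4 and TruSeq. With IL-1β lower there were 2, 4 and 3 of them, against 18.6%, 18.6% and 27.9% of all genes. Per kilobase of exon, in TruSeq, Iigp1 (123 ± 19.9 CPM per kb, SD, n = 3) and Bst2 (112 ± 12.2) had the highest levels of the 39 genes in the saline mice and differed by less than their spread, and Gbp6 was near the bottom at 1.87 ± 0.691. After IL-1β, Ifi47 (179 ± 53.9) and Iigp1 (176 ± 17.9) were the top 2 genes and differed by less than their spread, and Gbp6 followed Bst2 (113 ± 3.74) at 83.3 ± 16.1. Lengths are those of all annotated exons of a gene together.

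The sequence upstream of 3 gamma-type effectors is shown so that the ISRE and GAS letters can be read in genes that rose in each kit. Each run starts 40 bases before the first motif of its gene and ends at the last base before the RefSeq start site (GRCm38.p6), with motif letters in capitals. The motifs searched on both strands were ISRE as GAAANNGAA and GAS as TTCNNNGAA. The ISREs of Gbp2 and Gbp7 are on the strand opposite to the run, so their letters appear as the reverse complement. That of Tgtp1 is on the strand of the run. The Gbp2 run is chr3:142620565-142620662 on the plus strand with an ISRE first base at -58, that of Tgtp1 is chr11:48992247-48992374 on the minus strand with a GAS at -88 and an ISRE at -77, and that of Gbp7 is chr3:142530190-142530335 on the plus strand with GAS motifs at -106 and -87 and an ISRE at -52.
Gbp2: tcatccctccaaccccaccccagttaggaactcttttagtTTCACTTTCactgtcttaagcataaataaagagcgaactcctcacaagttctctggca
Tgtp1: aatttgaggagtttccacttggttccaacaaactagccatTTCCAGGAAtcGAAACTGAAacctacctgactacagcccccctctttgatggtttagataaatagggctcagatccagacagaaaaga
Gbp7: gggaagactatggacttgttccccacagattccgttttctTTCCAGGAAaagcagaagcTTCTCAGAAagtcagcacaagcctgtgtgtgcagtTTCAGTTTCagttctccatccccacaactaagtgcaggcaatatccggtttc

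RefSeq promoter windows, from 250 bases before to 50 bases after a start, were found for 30 of the 39 genes. None was found for Gbp6, Iigp1, Dhx58, Usp18, Oas2, Mx2, Zbp1, Parp9 and Parp14. An ISRE was present for 7 of the 8 gamma-type effectors with a window, 9 of 14 type I effectors and 2 of 8 transcription factors, against 9.76% of 27025 genes. A GAS was present for 4 of 8, 3 of 14 and 3 of 8, against 9.55% of all genes, and it reads the same on both strands. An NF-κB motif, searched by its common consensus, was present for 1 of 8 (Gbp2), 3 of 14 (Ifit2, Oasl1 and Bst2) and 2 of 8 (Irf1 and Irf2), against 9.55%. These matches are letters in a window and not measured sites. The last 25 bases lay in a coding transcript of the gene for 29 of 35 windows. Ifi47, with the highest fold change after Gbp6 in Pico and TruSeq, held none of the 3 motifs in its window. Irgm2 held both an ISRE and a GAS and did not pass in any kit. Both genes were picked after their values were seen, and the part of the motifs in the response was not tested.

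The type I effectors did not all move in 1 direction, although their median lay above that of all genes in each kit. Their lowest log2 fold changes were -0.96, -1.32 and -1.24 in Pico, V4 and TruSeq, their highest were 1.34, 1.69 and 1.47, and 11 of the 21 passed in no kit by limma-voom. Of these 11, other tools called Ifit1, Mx2 and Usp18, as given with each gene. Summed over the class, the level was 454 to 559 CPM after IL-1β and 325 to 419 CPM after saline in Pico, but the treatments overlapped in V4 (422 to 500 against 360 to 448 CPM) and TruSeq (421 to 569 against 367 to 477 CPM). The gamma-type effectors together had 1413 to 2091 CPM after IL-1β and 596 to 738 CPM after saline in TruSeq.

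Zbp1, a sensor of Z-form nucleic acids that can start necroptosis, was the only type I effector that rose in each kit. In TruSeq it had 346, 307 and 230 counts in I9579, I9582 and I9583 and 155, 84 and 97 in the saline mice. In Pico the counts were 129, 104 and 102 against 59, 41 and 36, and in V4 271, 249 and 186 against 121, 74 and 112. The treatments did not overlap, and U9574 was the highest saline mouse in each kit. Its log2 fold change was 1.34 (SE 0.27), 1.22 (SE 0.31) and 1.47 (SE 0.23) in Pico, V4 and TruSeq, with adjusted p of 0.00209, 0.0274 and 0.00112 from limma-voom. The call in V4 was lost without I9579, I9582, U9574 or U9575, with an adjusted p of up to 0.115.

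Isg15, a ubiquitin-like protein that is joined to other proteins after interferon, rose in V4 (log2 fold change 1.54, SE 0.31, adjusted p = 0.0108 from limma-voom) and TruSeq (1.45, SE 0.19, adjusted p = 0.000421). In Pico, with only 8 to 34 counts per library, its value of 1.14 (SE 0.47) did not pass (adjusted p = 0.115, limma-voom), although each of the 3 IL-1β libraries (21 to 34 counts) was above each saline library (8 to 17), and edgeR called it. In TruSeq it had 184 to 266 counts after IL-1β and 80 to 103 after saline. The call in V4 was lost without U9575 (adjusted p = 0.0638). Usp18, the protease that removes Isg15 from its targets and dampens the type I receptor, had log2 fold changes of 0.34 (SE 0.34), 0.67 (SE 0.34) and 0.68 (SE 0.25) and passed in none, with 138 to 185 counts after IL-1β against 71 to 158 after saline in TruSeq (adjusted p = 0.0655, limma-voom). It passed in TruSeq with TMM scaling, edgeR and DESeq2.

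Parp9 and Parp14, members of the ADP-ribosyltransferase family, rose in Pico and TruSeq. Parp14 had a log2 fold change of 1.0 (SE 0.15, adjusted p = 0.00018 from limma-voom) in Pico and 0.90 (SE 0.24, adjusted p = 0.0182) in TruSeq. Its counts in Pico were 653 to 885 after IL-1β and 342 to 467 after saline, and in TruSeq I9583 with 723 counts fell below U9574 with 747. Without I9579, I9582, U9575 or U9576 the call of Parp14 in TruSeq was lost (highest adjusted p 0.107). Parp9 rose by 0.74 (SE 0.17) in Pico and 0.67 (SE 0.13) in TruSeq, with adjusted p of 0.00605 and 0.00288. It lost the call in Pico without I9579 (adjusted p = 0.0567), and 9.4% of its exon bases overlap Dtx3l on the other strand. In V4 the values were 0.59 (SE 0.31) and 0.53 (SE 0.24) and did not pass.

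Nucleic acid sensors other than Zbp1 went the other way or did not pass. Ddx58 (RIG-I), the cytosolic sensor of viral RNA with free triphosphate ends, fell in TruSeq, from 332 to 475 counts after saline to 148 to 181 after IL-1β. Its log2 fold change there was -1.19 (SE 0.16, adjusted p = 0.000446 from limma-voom), and -0.70 (SE 0.31) in Pico and -1.32 (SE 0.53) in V4 with adjusted p of 0.146 and 0.15. It passed in Pico with edgeR and without U9575. Dhx58 (LGP2), a helicase that tunes the other sensors of this family, also fell in TruSeq, from 97 to 150 counts to 53 to 82 (log2 fold change -0.79, SE 0.23, adjusted p = 0.0233 from limma-voom), a call that was lost with TMM scaling and without I9582, I9583, U9574 or U9576 (highest adjusted p 0.103). The third member, Ifih1 (MDA5), had log2 fold changes of -0.10 (SE 0.19), -0.39 (SE 0.31) and -0.23 (SE 0.18) and passed in none.

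The 2′-5′-oligoadenylate synthetase family was split. Oasl1, a member with no synthetase activity that restrains translation of Irf7, fell in TruSeq from 177 to 205 counts after saline to 64 to 86 after IL-1β (log2 fold change -1.24, SE 0.16, adjusted p = 0.000313 from limma-voom). In Pico it had -0.92 (SE 0.38, adjusted p = 0.112) and in V4 -0.90 (SE 0.31, adjusted p = 0.0869), and the saline mice lay above the IL-1β mice in each kit. Oas2 had too few counts in V4 (0 to 21) to show a difference, and its log2 fold changes of 0.47 (SE 0.60), -0.34 (SE 1.31) and 0.27 (SE 0.20) did not pass.

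Oasl2 was the only one of the 39 genes with a call in 1 kit and the opposite sign in another. In TruSeq it had 81, 118 and 78 counts in the IL-1β mice and 75, 45 and 51 in the saline mice. In V4 it had 33, 48 and 22 against 62, 49 and 61, and in Pico 30, 41 and 24 against 38, 29 and 14. The IL-1β mice were thus above the saline mice in TruSeq, below them in V4 and mixed with them in Pico. The log2 fold change was 0.74 (SE 0.24, adjusted p = 0.0398 from limma-voom) in TruSeq, -0.79 (SE 0.45, adjusted p = 0.329) in V4 and 0.33 (SE 0.42, adjusted p = 0.665) in Pico. The difference between V4 and TruSeq was -1.53 (SE 0.49, unadjusted p = 0.00712, adjusted p = 0.468 from limma-voom), so it did not pass. The call in TruSeq itself was lost without any single mouse other than U9574 (highest adjusted p 0.163).

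The IFIT proteins bind foreign RNA and are among the genes that rise most after type I interferon, but none of the 3 passed here by limma-voom, and edgeR called Ifit1 in Pico (adjusted p = 0.0352). Ifit1 had 102 to 161 counts after IL-1β and 101 to 164 after saline in TruSeq, with a log2 fold change of 0.14 (SE 0.23). In Pico its value was 1.20 (SE 0.61), where U9575 had 5 counts and the other saline mice 46 and 49, and in V4 it was -0.45 (SE 0.48). Ifit2 had 0.27 (SE 0.38), -0.80 (SE 0.86) and -0.43 (SE 0.31), and Ifit3 -0.23 (SE 0.31), 0.18 (SE 0.35) and -0.33 (SE 0.21) in Pico, V4 and TruSeq. Of the 100-base windows of Ifit3, 31.7% also occur in I830012O16Rik, so its counts are uncertain.

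Rsad2 (viperin), which makes a chain-terminating nucleotide, did not pass either, with log2 fold changes of 0.41 (SE 0.51), 0.01 (SE 0.53) and 0.23 (SE 0.35) and with overlapping counts of 63 to 133 and 52 to 128 in TruSeq. Bst2 (tetherin), which holds budding virus at the cell surface, was the most abundant type I effector per kilobase in TruSeq and barely moved. It had 1046 to 1107 counts after IL-1β and 1024 to 1242 after saline, a log2 fold change of 0.01 (SE 0.10). Mx2, a dynamin-like GTPase against viruses, had log2 fold changes of 1.34 (SE 0.47), 1.37 (SE 0.73) and 0.62 (SE 0.22) with adjusted p of 0.0597, 0.281 and 0.0583 from limma-voom. It passed in Pico and TruSeq with TMM scaling, edgeR and DESeq2.

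Among the remaining type I effectors, Xaf1, a pro-apoptotic antagonist of XIAP, rose in V4 (log2 fold change 1.56, SE 0.40, adjusted p = 0.0315 from limma-voom), from 60 to 70 counts after saline to 117 to 252 after IL-1β. That call was lost without any single mouse other than I9583 (highest adjusted p 0.121), and in Pico and TruSeq Xaf1 had 1.07 (SE 0.46) and 0.45 (SE 0.28). It passed in Pico with edgeR, with DESeq2 and without I9583. Trim21, a cytosolic antibody receptor and ubiquitin ligase, fell in TruSeq (-0.76, SE 0.23, adjusted p = 0.0304), where U9576 with 97 counts was close to I9579 with 94, and the call was lost with TMM scaling, edgeR and DESeq2 and without I9582, I9583, U9574 or U9575 (highest adjusted p 0.127). Ifi35, with 16.8% of its exon bases under Gm11626 on the other strand, had 0.62 (SE 0.31), 0.24 (SE 0.20) and 0.14 (SE 0.13). Ifi44 had 0.16 (SE 0.46), 1.69 (SE 1.28) and -0.46 (SE 0.24), with 0 to 41 counts in V4, and neither gene passed.

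**Figure D3:**
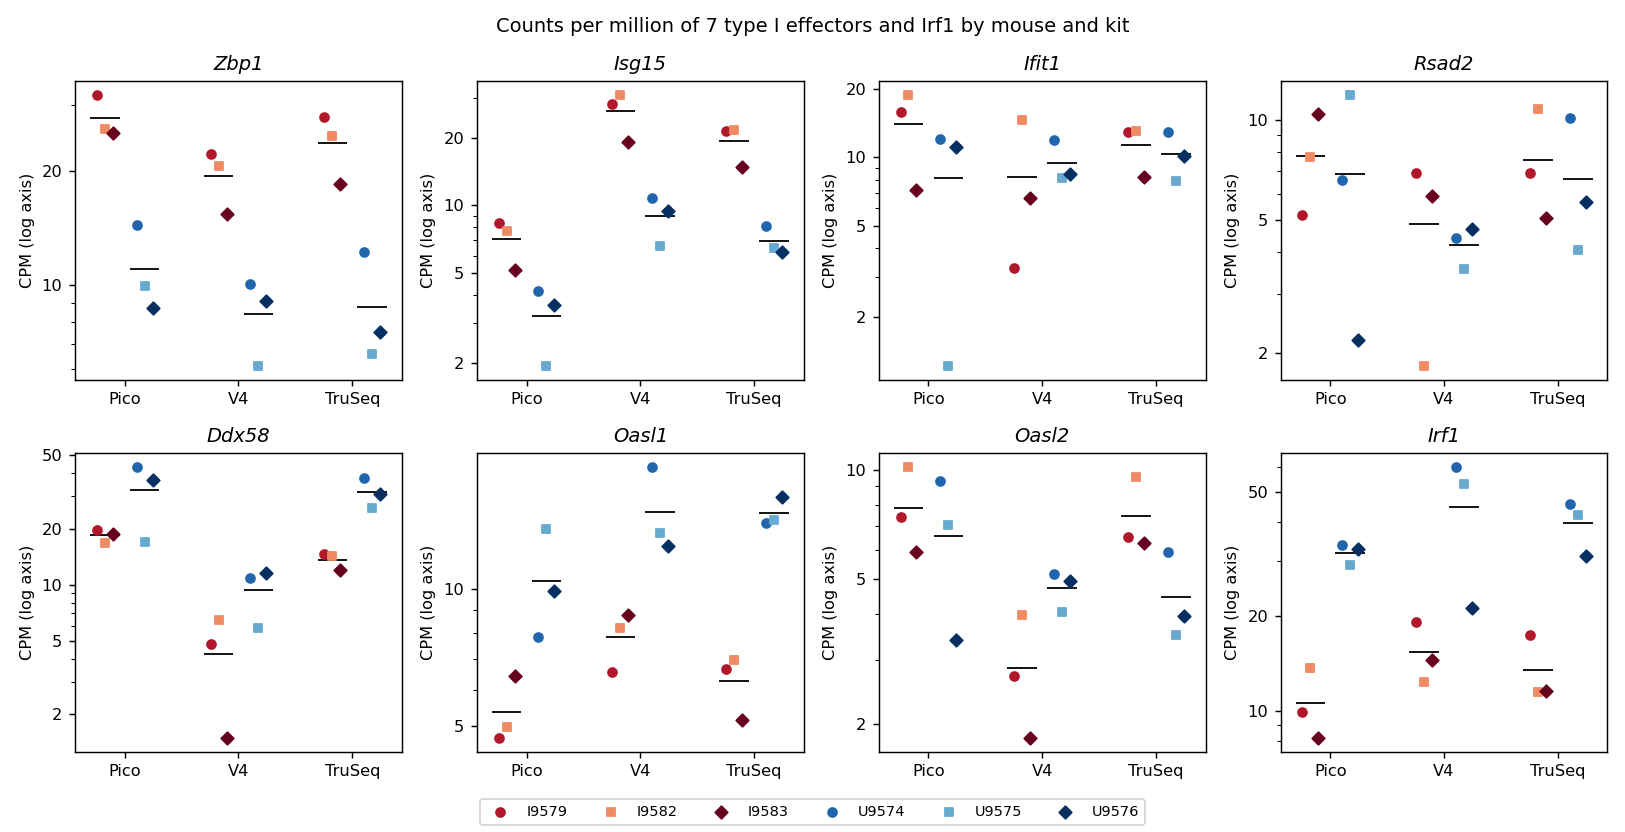
CPM (y axis, log scale) of the type I effectors Zbp1, Isg15, Ifit1, Rsad2, Ddx58, Oasl1 and Oasl2 and of Irf1 are plotted by kit for each mouse, IL-1β mice at the left and saline mice at the right of each pair, with a black line at the mean of 3 mice. Zbp1 and Isg15 separate upward and Irf1 downward in each kit, Ifit1 and Rsad2 overlap, and Oasl2 lies in opposite order in V4 and TruSeq.

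The ISRE motifs of 3 type I effectors are shown in the same way as above, as those of classical targets of type I interferon. The Isg15 run is chr4:156200819-156200936 on the minus strand, with overlapping ISRE motifs at -78, -72 and -66. The Rsad2 run is chr12:26456453-26456611 on the minus strand with an ISRE at -119, and that of Ifit1 is chr19:34640740-34640888 on the plus strand with ISRE motifs at -109 and -103, which overlap, and at -84. The ISREs of Rsad2 and Ifit1 are on the strand opposite to the run, and those of Isg15 are on the strand of the run.
Isg15: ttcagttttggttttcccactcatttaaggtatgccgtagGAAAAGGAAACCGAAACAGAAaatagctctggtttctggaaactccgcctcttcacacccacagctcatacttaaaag
Rsad2: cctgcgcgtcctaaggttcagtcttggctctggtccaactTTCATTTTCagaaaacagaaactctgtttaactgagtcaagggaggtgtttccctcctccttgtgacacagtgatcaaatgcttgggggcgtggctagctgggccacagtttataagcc
Ifit1: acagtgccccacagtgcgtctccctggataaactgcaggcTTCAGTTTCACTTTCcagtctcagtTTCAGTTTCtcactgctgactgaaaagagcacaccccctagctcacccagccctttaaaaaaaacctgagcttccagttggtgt

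Irf1, the factor that interferon gamma induces early and that drives GBP genes, was lower after IL-1β. In TruSeq it had 216, 142 and 143 counts in the IL-1β mice and 577, 539 and 401 in the saline mice. In Pico the counts were 40, 55 and 33 against 138, 120 and 136, and in V4 234, 149 and 175 against 722, 642 and 263. The treatments did not overlap in any kit, and in V4 U9576 was close to the IL-1β mice. The log2 fold change was -1.61 (SE 0.26, adjusted p = 0.000376 from limma-voom) in Pico, -1.43 (SE 0.41, adjusted p = 0.0467) in V4 and -1.56 (SE 0.20, adjusted p = 0.000307) in TruSeq. In V4 the call was lost with TMM scaling and without any single mouse other than U9576, with an adjusted p of up to 0.166, and in Pico it was lost in 1 fit of all 18 libraries (adjusted p = 0.0727). Irf1 thus fell in the samples in which 6 gamma-type effectors rose in each kit.

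Irf2, a repressor that competes with Irf1 for the same sites, fell in TruSeq from 766 to 902 counts to 444 to 588 (log2 fold change -0.68, SE 0.13, adjusted p = 0.00281 from limma-voom), with -0.59 (SE 0.20) in Pico, where edgeR called it, and -0.69 (SE 0.27) in V4. Irf5, which acts below Toll-like receptors, fell in TruSeq (-0.88, SE 0.17, adjusted p = 0.00281), and 14.2% of its exon bases overlap Tnpo3 on the other strand. Stat2 rose in Pico (log2 fold change 0.60, SE 0.15, adjusted p = 0.0078) and TruSeq (0.51, SE 0.12, adjusted p = 0.0105), from 1031 to 1090 counts to 1249 to 1738 in the latter, and the call in TruSeq was lost without U9576 (adjusted p = 0.0535). In V4 it had 0.36 (SE 0.19).

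The other factors of the type I pathway did not pass. Irf7, the amplifier of type I interferon production and itself a classical type I target, had log2 fold changes of -0.08 (SE 0.22), -0.01 (SE 0.23) and 0.20 (SE 0.18), with 328 to 447 counts after IL-1β and 261 to 403 after saline in TruSeq. Irf9, the DNA-binding partner of Stat2, had 0.01 (SE 0.18), -0.04 (SE 0.28) and 0.01 (SE 0.12). Irf3, which is activated after translation by viral sensing, had -0.09 (SE 0.22), 0.01 (SE 0.18) and -0.11 (SE 0.10). Irf8, a factor of macrophages and dendritic cells, had 0.26 (SE 0.31), 0.41 (SE 0.37) and 0.29 (SE 0.21).

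Among the IL-1β mice, I9583 stood apart in the gamma-type effectors. It had the lowest CPM of the 3 IL-1β mice for 10 of the 10 gamma-type effectors in Pico, in V4 and in TruSeq. Over all genes that averaged 20 counts or more, I9583 was the lowest IL-1β mouse for 37.8%, 37.7% and 40.8%. The level in I9583 relative to the mean of the other IL-1β mice had a median log2 ratio over the gamma-type effectors of -0.69, -0.68 and -0.77 in Pico, V4 and TruSeq, beside -0.03, -0.07 and -0.03 over all such genes. For the type I effectors with that mean, I9583 was lowest for 11 of 19 in Pico, 8 of 19 in V4 and 19 of 21 in TruSeq. In V4, I9579 was lowest more often, for 10 of 19. Of the 8 transcription factors, I9583 was lowest for 4, 2 and 3 in Pico, V4 and TruSeq. Its summed neutrophil markers lay between those of the other IL-1β mice in each kit, at 42.1, 52.9 and 59.6 CPM. Without I9583 the number of gamma-type effectors that rose was within 1.5 times the number with it in each kit.

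Among the saline mice, U9574 had the highest CPM for 18 of 21 type I effectors in TruSeq, 13 of 19 in V4 and 13 of 19 in Pico, and U9575 the lowest for 15, 12 and 9. Over all genes of at least 20 counts, U9574 was highest for 36.0% in TruSeq, 27.7% in V4 and 34.5% in Pico. U9575 was lowest for 31.2%, 24.6% and 32.8% of them. The gamma-type effectors also had U9574 highest often, for 8, 6 and 5 of 10 in TruSeq, V4 and Pico. The median log2 ratio of U9574 to the mean of the other saline mice over the type I effectors was 0.33, 0.41 and 0.47 in Pico, V4 and TruSeq. U9574 also had the highest summed Kupffer cell and macrophage markers of the saline mice in each kit (281, 295 and 279 CPM), and the part of this in the type I levels was not tested.

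**Figure D4:**
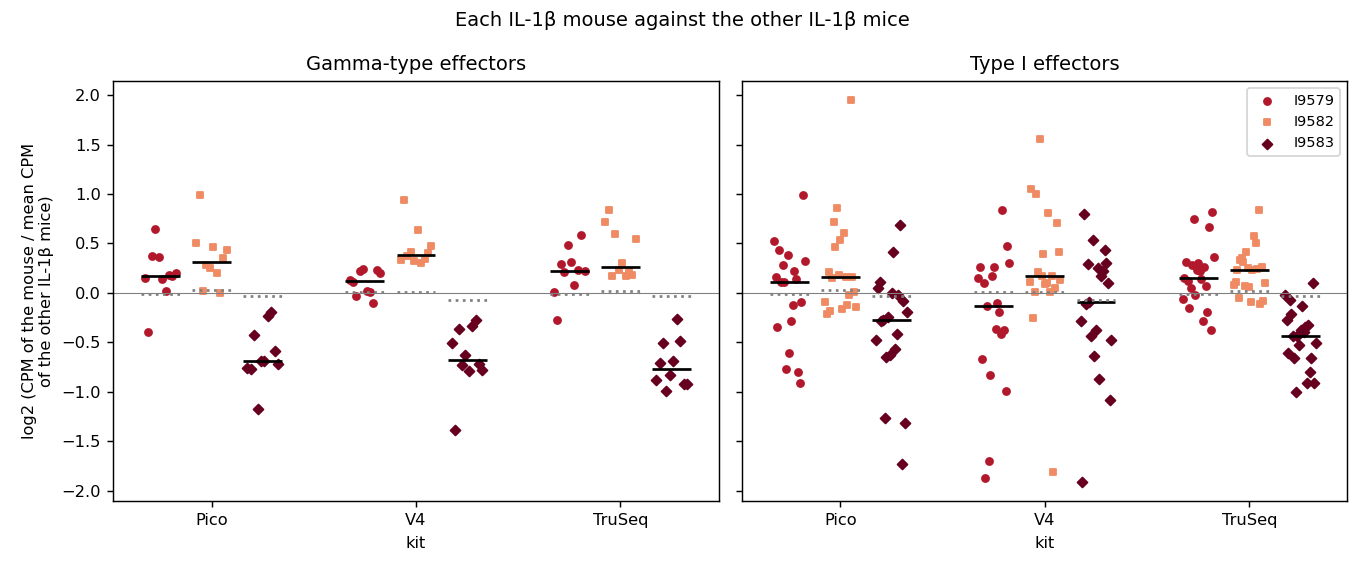
The log2 ratio of the CPM of each IL-1β mouse to the mean CPM of the other IL-1β mice (y axis) is plotted by kit for the gamma-type effectors at the left and the type I effectors at the right, with 1 point per gene of at least 20 counts on average. Black lines are medians over the class and dotted grey lines are medians over all such genes. I9583 lies below 0 for each gamma-type effector in each kit, with medians of -0.69, -0.68 and -0.77, and the medians over all genes stay within 0.07 of 0.

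A term for kit by treatment tested whether the response differed between kits. None of the 39 genes passed between Pico and TruSeq, V4 and TruSeq or Pico and V4 (limma-voom, smallest adjusted p 0.923, 0.468 and 0.85), and over all genes 0.00% passed in each pair. At an unadjusted p under 0.05 there were 0, 1 and 1 of the 39 genes, against 5.49%, 6.36% and 5.49% of all genes. The single genes were Oasl2, above, and Gbp2, with a difference of -1.50 between Pico and V4 (SE 0.65, unadjusted p = 0.0351, limma-voom). The standard error of a difference had a median of 0.39, 0.45 and 0.54. Even the differences of -1.53 for Oasl2 and -1.50 for Gbp2 did not pass after adjustment over all genes. Differences of this size on the log2 scale could thus be missed. A fit with a replicate block, in which libraries of 1 animal are paired, also passed 0 of the 39 genes in each pair (smallest adjusted p 0.659, 0.493 and 0.628). edgeR and DESeq2 likewise called 0 of the 39 in each pair.

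The level of the genes in CPM differed between kits, and the ratio between kits went with exon length. The kits differ in several other ways, and the part of length in these ratios was not tested. The tables were normalized separately, so these ratios are given without a test. Bst2 (764 exon bases) and Isg15 (756), the shortest of the genes, had log2 ratios of Pico to TruSeq of -1.88 (SD 0.23 over the 6 mice) and -1.34 (SD 0.36), and of V4 to TruSeq of 1.13 (SD 0.12) and 0.42 (SD 0.20). Parp14, the longest with 9306 exon bases, had 1.07 (SD 0.25) in Pico and -2.91 (SD 0.48) in V4. Oas2 was also low in V4, at -3.22 (SD 1.81). Over the 37 genes that averaged 20 counts or more in both tables, Spearman's rho of this ratio with exon length was 0.43 for Pico and -0.49 for V4. Over all such genes it was 0.42 (n = 9569) and -0.63 (n = 10266), and genes of 1 library are not independent points.

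**Figure D5:**
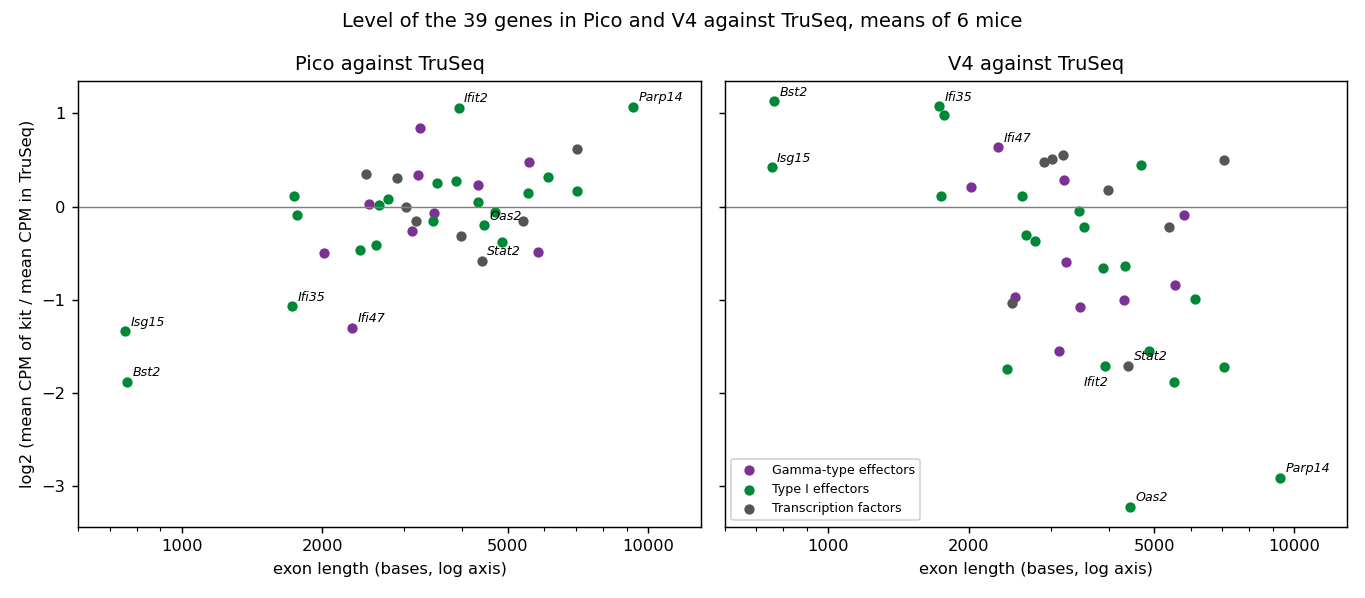
The log2 ratio of mean CPM in Pico (left) or V4 (right) to mean CPM in TruSeq (y axis, 6 mice) is plotted against the exon length of the 39 genes (x axis, log scale). The short genes Bst2 and Isg15 lie below 0 in Pico and above 0 in V4, and the longest gene, Parp14, lies at 1.07 in Pico and at -2.91 in V4.

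Other genes of the pathways, none of them among the 39, were read from lists chosen by role. Of 67 with a row in Pico, 16 rose and 2 fell. Of 66 in V4, 11 rose and 0 fell by limma-voom, edgeR and DESeq2, with 7 lower at an unadjusted p under 0.05. Of 68 in TruSeq, 21 rose and 10 fell. Over all genes, 6.78%, 3.60% and 12.3% rose and 10.8%, 7.41% and 21.8% fell in Pico, V4 and TruSeq. Of 18 genes listed for ligands, 4 had a row in Pico and V4 and 5 in TruSeq, and none rose by limma-voom, edgeR or DESeq2 or at an unadjusted p under 0.05, while Il15 and Il18 fell in TruSeq. Ifng, the interferon gamma gene itself, had no row in Pico, 6 counts in U9575 alone in V4 and 3 counts in U9576 alone in TruSeq. It was at 0 in each IL-1β library of V4 and TruSeq, where a level too low to be counted would not show. The genes of interferon alpha and beta on this list were matched to no row in any kit. The ligand rows were thus those of Il15, Il18 and Il27 in each kit, Ifnk in Pico, Ifng in V4 and TruSeq, and Il12a in TruSeq.

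Among the receptors, Ifngr2, the signalling chain of the interferon gamma receptor, rose in Pico (log2 fold change 0.82, SE 0.21) and TruSeq (0.81, SE 0.14), with 0.86 (SE 0.26, adjusted p = 0.0589 from limma-voom) in V4. Ifngr1 and Ifnar2 passed in none, and Ifnar1 passed in TruSeq alone (0.31, SE 0.11). Of the kinases, Jak1 rose by 0.54 in Pico and by 0.33 in TruSeq, Jak2 passed in Pico alone, where it rose by 0.97, and Tyk2 passed in none. Of 5 negative regulators, Socs3, an inhibitor of Jak kinases below IL-6, and Ptpn2, a phosphatase of Jak1, rose, while Ptpn6 (-0.99, SE 0.13) and Pias1 (-0.52, SE 0.14) fell in TruSeq. Ptpn2 had log2 fold changes of 1.26 (SE 0.27), 1.58 (SE 0.29) and 1.51 (SE 0.18) and was called in each kit. Socs3 had 1.99 (SE 0.44), 2.11 (SE 0.63) and 2.35 (SE 0.47) and was called in Pico and TruSeq.

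Of the genes listed for the induction of interferon, 10, 9 and 10 had a row in Pico, V4 and TruSeq, and 3, 2 and 3 of them rose. Over all genes, 6.78%, 3.60% and 12.3% rose. Mavs and Tlr3 fell in TruSeq, where 21.8% of all genes fell and edgeR and DESeq2 each called 1 gene of the list lower. Ikbke, the kinase IKK-epsilon that phosphorylates Irf3 and Irf7, rose most of the list. It had 3218, 3050 and 2451 counts in the IL-1β mice of TruSeq and 289, 432 and 319 in the saline mice, and log2 fold changes of 3.09 (SE 0.19), 3.51 (SE 0.27) and 3.12 (SE 0.16) in Pico, V4 and TruSeq. Its relative Tbk1 rose by 1.15 in Pico and 0.94 in TruSeq, and the adaptor Ticam1 (TRIF) by 1.14, 1.37 and 1.09 in the 3 kits. Il15, Il18, Ptpn6, Pias1, Ifngr1, Ifnar1, Ifnar2, Jak1, Jak2, Tyk2, Mavs, Tlr3, Tbk1, Ticam1, Tgtp2, Cxcl10, Gbp4, Gbp8 and Gbp11 were chosen for naming after their values were seen.

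Of 11 further gamma-type genes with a row, 4, 3 and 5 rose in Pico, V4 and TruSeq, and 2 fell in Pico and in TruSeq. The shares over all genes were 6.78%, 3.60% and 12.3% higher, and 10.8% lower in Pico and 21.8% lower in TruSeq. Cxcl9, a chemokine for T cells that is a classical interferon gamma target, had the highest fold change of the pathway genes. It had 10807, 9327 and 6274 counts in the IL-1β mice of TruSeq and 144, 157 and 201 in the saline mice, and log2 fold changes of 5.45 (SE 0.38), 5.47 (SE 0.41) and 5.73 (SE 0.23). Its neighbours in function went elsewhere. Cxcl11 fell in Pico (-3.77, SE 0.84) and TruSeq (-2.95, SE 0.49), from 46 to 109 counts after saline to 6 to 9 in the latter, and Cxcl10 passed in none (-0.41, -0.80 and -0.65).

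The GBP family outside the 39 genes was likewise split. Gbp10 rose by 4.94 (SE 0.40), 4.86 (SE 0.52) and 4.42 (SE 0.25), and Gbp9 by 3.40 (SE 0.36), 4.49 (SE 1.17) and 3.25 (SE 0.31) in Pico, V4 and TruSeq. Gbp5, which promotes inflammasome activation, rose in Pico (1.53, SE 0.47) and TruSeq (1.86, SE 0.55). Gbp1 fell in Pico (-4.52, SE 0.65) and TruSeq (-3.61, SE 0.44). It had 37, 26 and 33 counts in the saline mice of TruSeq and 1, 4 and 2 in the IL-1β mice, and in V4 the value of -3.26 (SE 1.02) did not pass (adjusted p = 0.0653, limma-voom). Gbp4, Gbp8 and Gbp11 passed in none.

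Of 28 further interferon-stimulated genes, 4, 5 and 7 rose in the 3 kits, and 2 fell in TruSeq. The shares over all genes were 6.78%, 3.60% and 12.3% higher, and 21.8% lower in TruSeq. Isg20, an antiviral exonuclease, rose by 2.19 (SE 0.59), 2.05 (SE 0.30) and 2.23 (SE 0.25). Herc6, the ligase that joins Isg15 to proteins in mice, rose by 1.45 (SE 0.24), 1.45 (SE 0.30) and 1.53 (SE 0.23), and Ifitm2, a membrane protein that blocks virus entry, by 1.0 (SE 0.14), 1.36 (SE 0.16) and 1.40 (SE 0.09). Mx1, Oas1a, Oas3, Eif2ak2, Rtp4 and Cmpk2, named after their values were seen, passed in none of the kits.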

How the data were processed

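The deposited tables hold gene counts per library, which the authors made by aligning reads to mm9 with GSNAP, removing ribosomal reads and resampling reads to an equal number within each kit with PORT. Pico and TruSeq counts are sense reads and V4 counts are reads of either strand. The annotation behind the tables is not given in the sources used here. No molecular identifiers were used, so PCR copies count as reads. Libraries of 1 kit come from separate mice. The labels describe the livers as snap-frozen and the study's methods as kept in RNAlater. Other runs of Pico and TruSeq are not used here.

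Groups came from the sample titles (3 mice per treatment in each kit). Each kit was fitted with limma-voom (limma 3.58.1, edgeR 4.0.16, R 4.3.3) scaled by library totals, on all genes with a count in any library, with two-sided tests and Benjamini-Hochberg adjustment, and called at an adjusted p of at most 0.05. Interactions of kit and treatment used both kits in 1 fit. Alternatives were TMM and DESeq2 size factors, edgeR's quasi-likelihood test, DESeq2 1.42.0, a filter of 10 counts in 3 libraries, thinning to 4024632 counts (median of 5 draws), other thresholds, leaving out each mouse, 1 fit of all 18 libraries, 20 reads added to both means and, for interactions, the mouse as a block. The fits were tested on simulated data. The mouse number marks the same animal across kits, and libraries of 1 mouse deviated together from their group means (correlations over genes of 0.176 to 0.406 for Pico and TruSeq, 0.154 to 0.374 for V4 and TruSeq and 0.0591 to 0.206 for Pico and V4).

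The 39 genes, their classes and the lists were chosen with earlier results of these data known. A gene of the pathway lists is not reported here and is in none of their counts. Values in every library are given for genes called in the same direction in all 3 kits (up to 6 per class) and for genes with opposite signs and a call, and pathway genes are named where called in the same direction in at least 2 kits, up to 12 by the size of the median log2 fold change. Promoters are shown for 3 genes of each effector class, those with the highest median log2 fold change and a motif upstream. Positions and exon lengths are of GENCODE vM1 (mm9), and promoters are of RefSeq (GRCm38.p6). Levels set across kits come from tables normalized separately.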

Additional observations from a re-analysis of the deposited data

How the results depend on the processing

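No named call of the 39 genes changed direction under any alternative tried, and no gene of the 39 passed a kit interaction under any of them, the replicate block included (0 in each pair). With 20 reads added to both means, the log2 fold change was counted as moved in size for 6 of 13 called genes in Pico. It was so for 2 of 10 in V4 and 2 of 22 in TruSeq. The number of gamma-type effectors that rose stayed within 1.5 times its value throughout; that of gamma-type effectors that fell was 1 in each kit once Irf1 and Irf8 were added to the class. Of type I effectors, the number that rose was 7 with edgeR and 5 with DESeq2 in Pico against 3, ranged from 0 to 3 in V4 with 1 mouse left out and was 0 there at an adjusted p of at most 0.01, and was 3 to 7 in TruSeq with 1 mouse left out and 3 at 0.01. The number that fell was 1 with edgeR in Pico and 0 to 1 with 1 mouse left out; in V4 it was 2 in 1 fit of all 18 libraries and 1 at an adjusted p of at most 0.1; in TruSeq it was 2 with TMM, DESeq2 size factors, thinning or 0.01, and 2 to 4 with 1 mouse left out. Of the 39 genes together, the number that fell in Pico was 3 with edgeR, 2 with the filter on low counts, 0 in 1 fit of all libraries, 2 at 0.1 and 1 to 2 with 1 mouse left out. In V4 it was 0 with TMM, DESeq2 size factors or 0.01, 4 in 1 fit of all libraries, 2 at 0.1 and 0 to 1 with 1 mouse left out. The median log2 fold change of the type I effectors in Pico was 0.14 with 20 reads added to both means and ranged from 0.19 to 0.53 with 1 mouse left out, and in V4 it was 0.36 with edgeR and 0.36 with DESeq2. With DESeq2, 5 pathway genes fell in TruSeq against 10. With the filter on low counts, Ifit2 and Oas2 dropped out of V4. The causes were not tested.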
